A study of Rattus norvegicus with 14 samples.

Results

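Ndrg2, Clic1, Tada3, Aatk, Hp1bp3, Npdc1, Egfl8 and Plekha4 are 8 rat genes that were selected by the measured change in the use of their transcription start sites (TSSs) when cultured Schwann cells received a cAMP analog. They were taken by gene symbol from the 2993 genes in a list of 4993 candidate TSSs, of which 689 genes have 2 or more TSSs, and they hold 41 of the listed TSSs. Because their cAMP response chose them, the difference between cAMP-treated and control cells is described below without a test. Tests are kept for loss of SOX10, in libraries outside that comparison. The genes were chosen with earlier results of these data known, so these tests are not fully independent of the choice.

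Transcript 5′ ends were captured by Tn5Prime, a template-switching method in which a read begins where a transcript begins, and the level of a TSS is in RPM, the reads that begin there scaled to the size of the library. Libraries held 29895599 to 79940274 reads, so that the 3 reads which a count of 0 allows stand for 0.0375 to 0.1003 RPM, a limit for counting error only. There were 2 libraries of sciatic nerve from adult rats of 6 to 9 months, 3 of primary rat Schwann cells kept in vehicle (control) and 3 of the same cells in 250 µM CPT-cAMP for 3 days (cAMP). The remaining libraries came from S16, an immortalized rat Schwann cell line, with 2 of unmodified (parental) cells and 4 of ΔSOX10 clones labelled 1-1, 1-2, 2-1 and 2-2, each clone grown from a single cell and carrying frameshift alleles alone in the first coding exon of Sox10. No strain was given in the labels. Nerve is a mixed tissue, control and cAMP cells had the same medium apart from the analog, and each library had its own RNA isolation. Nerve and S16 libraries were run on a HiSeq and the primary cell libraries on a NovaSeq instrument, and since instrument and cell source cannot be told apart, values from these sets stand side by side below, untested.

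A gene with several TSSs can be read from more than 1 promoter, which gives transcripts with different first exons and lets each promoter answer to its own factors. In Schwann cells, the glia of peripheral nerve, SOX10 is the transcription factor that holds the lineage and works with EGR2 on myelin genes, while a rise in cAMP stands in for part of the signal that axons give. All candidate TSSs lie near a peak of H3K4me3, a mark of active promoters, that overlaps a peak of SOX10 binding in rat nerve, as chosen by the authors. The TSS itself can be farther from the SOX10 peak, by up to 6773 bp in the 8 genes. In the following, the TSSs of a gene are numbered in the direction of transcription, and a share is the percentage of the gene's summed RPM that begins at a TSS, given where that sum is above 1 RPM.

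RefSeq starts were found for 6 of the 8 genes, and those of Ndrg2, Aatk, Egfl8 and Plekha4, the genes whose sum was higher with cAMP, are shown as the 250 bases before the start in GRCr8, read in the direction of the gene. Capitals mark 3 motifs searched on both strands: CAAAG, the core of SOX sites, in 48.2% of all 33469 rat promoter windows of this length, TGACG, found in cAMP response elements, in 18.2%, and GCGTGGGCG, the site of EGR proteins, in 0.478%. The windows for Ndrg2 hold none of these letters, and motifs found in a window are a description of its letters alone.
Ndrg2 upstream start (chr15:27083121-27083370, - strand): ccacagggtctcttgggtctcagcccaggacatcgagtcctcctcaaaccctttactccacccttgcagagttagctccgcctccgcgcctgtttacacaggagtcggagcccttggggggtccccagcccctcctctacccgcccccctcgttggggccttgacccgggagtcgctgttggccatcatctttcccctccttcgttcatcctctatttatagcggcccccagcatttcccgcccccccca
Ndrg2 downstream start (chr15:27082503-27082752, - strand): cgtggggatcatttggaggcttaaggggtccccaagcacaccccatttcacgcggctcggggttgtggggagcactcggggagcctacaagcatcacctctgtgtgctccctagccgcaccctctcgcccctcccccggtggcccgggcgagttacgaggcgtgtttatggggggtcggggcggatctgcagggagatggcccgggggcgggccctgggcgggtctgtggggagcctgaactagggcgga
Aatk (chr10:105825619-105825868, - strand): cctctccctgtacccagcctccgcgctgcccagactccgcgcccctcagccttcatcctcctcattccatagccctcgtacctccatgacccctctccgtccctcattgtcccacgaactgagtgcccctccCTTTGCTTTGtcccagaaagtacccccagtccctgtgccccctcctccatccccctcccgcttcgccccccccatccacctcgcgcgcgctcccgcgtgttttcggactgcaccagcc
Egfl8 (chr20:4137803-4138052, + strand): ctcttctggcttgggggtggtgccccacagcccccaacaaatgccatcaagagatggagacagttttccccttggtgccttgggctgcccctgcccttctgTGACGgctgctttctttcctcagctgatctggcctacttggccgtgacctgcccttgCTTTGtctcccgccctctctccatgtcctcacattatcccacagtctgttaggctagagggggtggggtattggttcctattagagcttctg
Plekha4 (chr1:105142268-105142517, + strand): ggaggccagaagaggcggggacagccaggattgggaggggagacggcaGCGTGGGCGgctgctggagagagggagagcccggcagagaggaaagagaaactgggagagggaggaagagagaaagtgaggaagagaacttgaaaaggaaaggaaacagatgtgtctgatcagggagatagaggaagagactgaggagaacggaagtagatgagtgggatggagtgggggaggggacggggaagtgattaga
The starts of Ndrg2 in RefSeq are 618 bp apart, and its listed TSSs are 601 bp apart on rn5, the build of the deposited table. Which TSS matches which RefSeq start was not resolved for the other genes, since no sequence of rn5 was used here. Egfl8 is on the minus strand in the table and on the plus strand in GRCr8. Aatk holds 2 SOX cores, both on the other strand and directly following each other, at 118 and 113 bases before the start. Egfl8 holds TGACG 149 bases and a SOX core, also on the other strand, 92 bases before its start, and Plekha4 holds the EGR site 202 bases before its start. Among the windows not shown, Npdc1 holds TGACG on the other strand, 74 bases before its start, and its sum with cAMP was 1.04 times the control. The window of Tada3 holds none of these motifs.

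The label of TSS switching held in the strict sense for 3 of the 8 genes. The most used TSS differed between control and cAMP cells for Ndrg2, Clic1 and Tada3 and was the same for the other 5 genes. For Clic1 the count rests on TSS 5, and whether its transcripts run through Clic1 or the next gene, Ddah2, was not tested. Among Clic1 TSSs 1 to 4 alone, TSS 1 had the highest mean share in control and in cAMP cells. The sum of Tada3 was no more than 11.3 RPM in any library. In 7 of the 8 genes, the TSS that gained most had a higher share in all 3 cAMP libraries than in any control library, and Egfl8 was the exception. Both the genes and the TSS within each were picked by their change in these same libraries. This count is therefore a description, and the same count over other genes was not made. Across genes with 2 or more tested TSSs, limma's diffSplice called 44 of 460 (9.57%) for unequal change with cAMP, the contrast that chose the 8 genes, so their own calls are not given. Of the 41 listed TSSs, 35 passed the minimum of 1 RPM in 2 of the 6 primary cell libraries, 25 had all cAMP libraries above all controls and 6 had all below. Over all TSSs that passed, these groups held 19.2% and 17.4%. A TSS that passed through cAMP libraries alone, such as Plekha4 TSS 2, could hardly be other than higher, and this contrast chose the genes. These counts are therefore a description too.

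**Figure D1:**
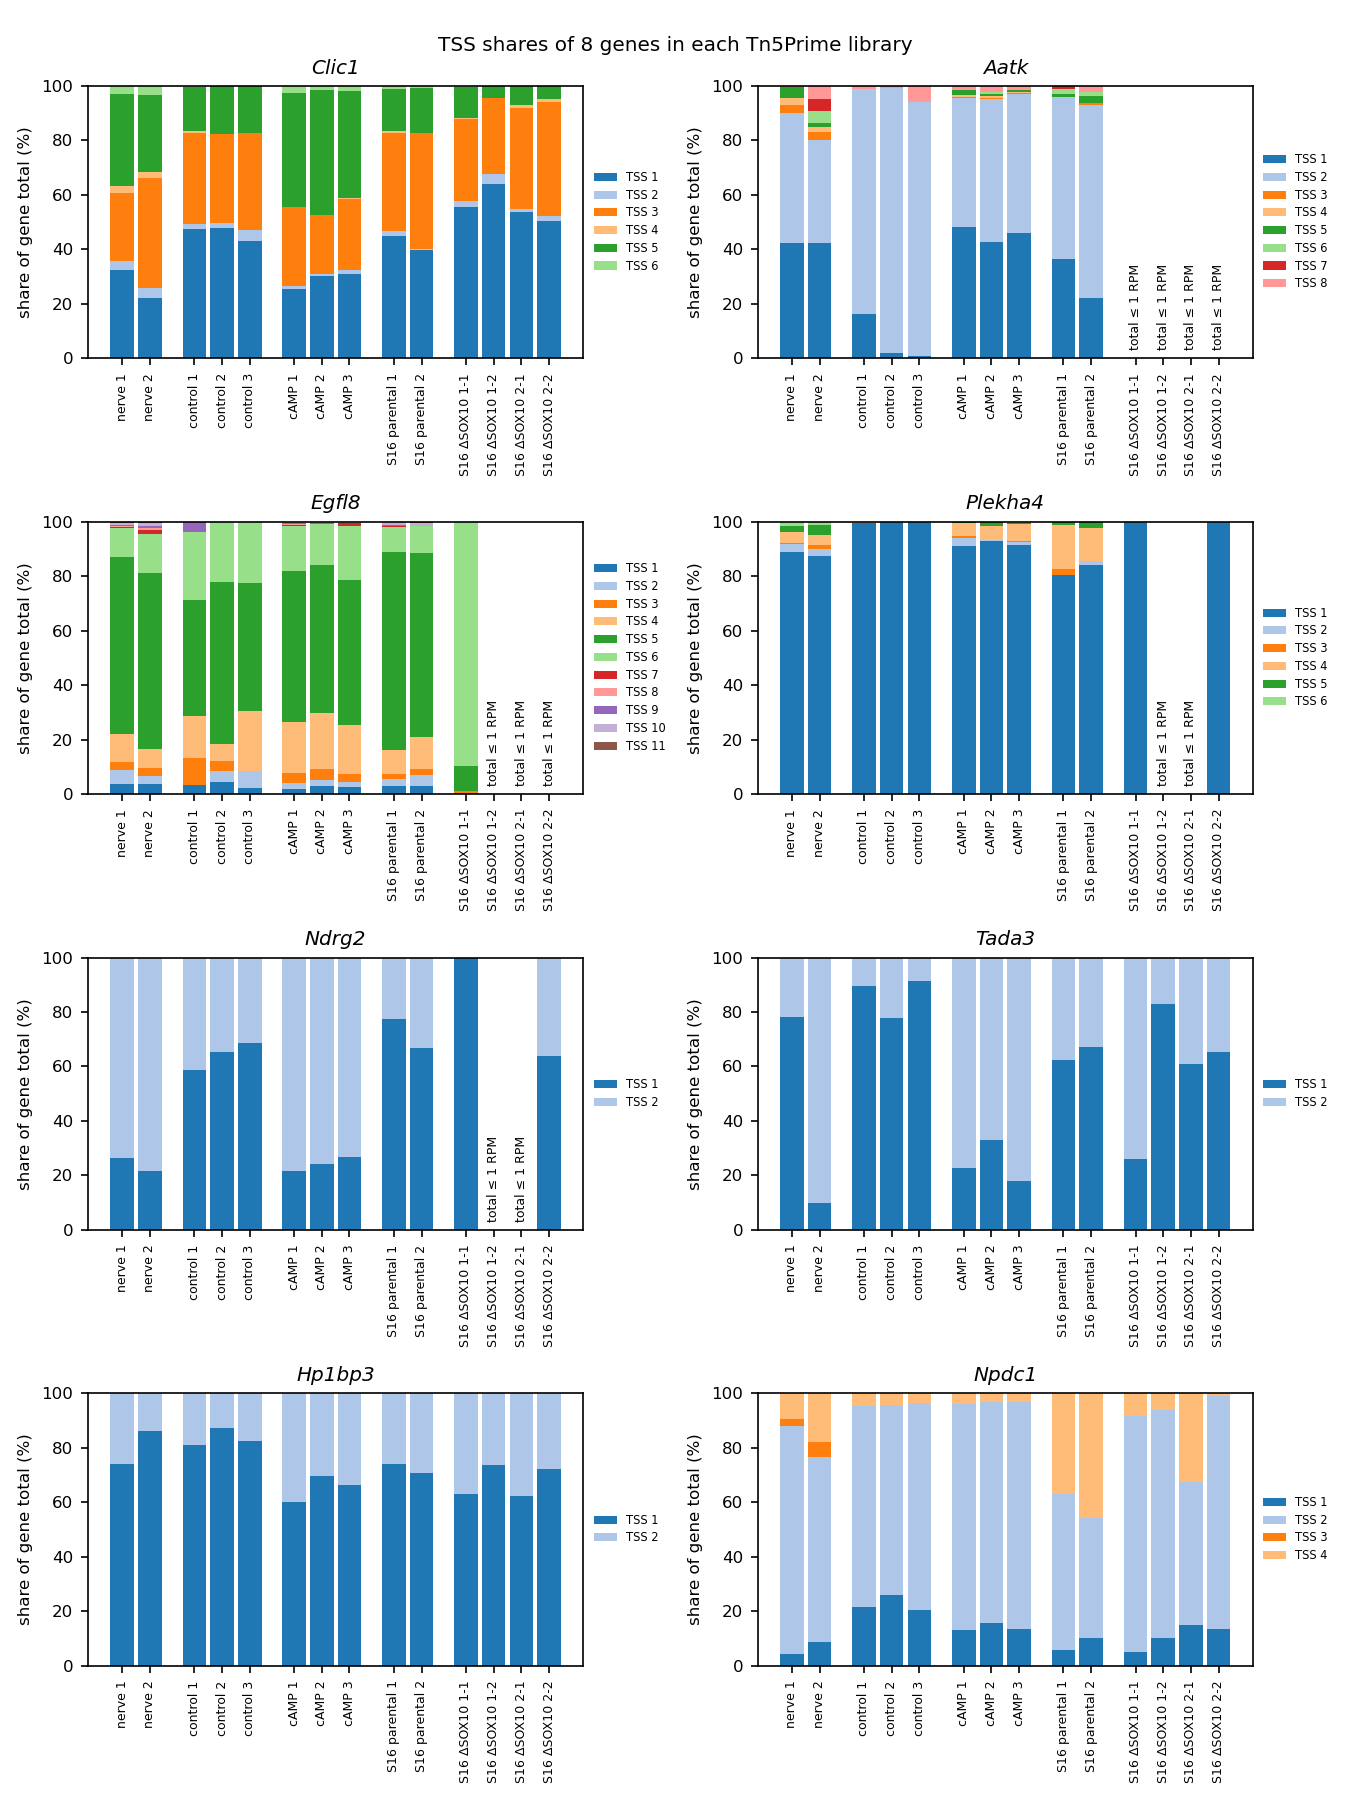
TSS shares of the 8 genes (percent of the gene's summed RPM, vertical axis) in each of the 14 libraries, with 1 color per TSS. Bars are left out where the sum was 1 RPM or less. The share of Ndrg2 TSS 2 was between 73.2% and 78.2% in the cAMP libraries and between 31.3% and 41.3% in the controls.

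Ndrg2, a member of the NDRG family with an α/β-hydrolase fold, changed its most used TSS. Ndrg2 TSS 2 (chr15:32126803-32126845, minus strand) had 6.44, 6.77 and 5.72 RPM in the controls and 97.3, 100.8 and 87.8 RPM in cAMP cells. Ndrg2 TSS 1, 601 bp upstream (chr15:32127401-32127449), was at 9.14, 12.7 and 12.6 RPM in the controls and 27.1, 32.3 and 32.2 RPM in cAMP cells. Both TSSs were higher with cAMP, by 3.72 and 1.35 in log2(RPM + 1), with no overlap between the groups. The share of TSS 2 was 35.8% ± 5.11 in control and 75.7% ± 2.53 in cAMP cells (SD, n = 3 each). In the nerves it was 73.7% and 78.3%, within the spread of the cAMP libraries at 1 nerve and just above them at the other. In parental S16 cells it was 22.5% and 33.3%, so that TSS 1 was the main TSS there, as in control cells. The gene's summed level was 17.8 ± 1.99 RPM in control, 126 ± 6.69 RPM in cAMP cells and 128 ± 38.5 RPM in nerve (SD, n = 2 nerves).

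Clic1 encodes a chloride intracellular channel protein, which exists in soluble and membrane forms. Its TSSs lie in 2 groups, TSSs 1 to 4 at the 5′ end and TSSs 5 and 6 some 9205 bp further on, each group with an H3K4me3 and a SOX10 peak of its own. Clic1 TSS 1 (chr20:7113260-7113288, plus strand) had 324, 312 and 293 RPM in the controls and 105, 108 and 117 RPM in cAMP cells. Clic1 TSS 5 (chr20:7122409-7122549) had 111, 113 and 117 RPM in the controls and 174, 164 and 149 RPM in cAMP cells. TSS 1 was thus lower and TSS 5 higher with cAMP, with no overlap in either case. TSS 5 held 16.9% ± 0.574 of the total in control cells, 42.5% ± 3.25 in cAMP cells (SD, n = 3 each) and 33.9% and 28.3% in the nerves.

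At TSSs 1 to 4 of Clic1 the difference between cAMP and control cells lay between -1.52 and -1.22 in log2(RPM + 1). When TSSs 1 to 4 were taken alone, which was chosen after seeing the data, TSS 1 held 55.7% ± 3.18 in control and 51.8% ± 5.87 in cAMP cells (SD, n = 3 each), and the groups overlapped. The summed level of TSSs 1 to 4 was 556 ± 17.4 RPM in control and 214 ± 22.2 RPM in cAMP cells, while that of TSSs 5 and 6 was 114 ± 2.51 and 170 ± 14.3 RPM. Ddah2, which degrades methylated arginine, follows on the same strand, and its 9 listed TSSs are tied to the H3K4me3 peak of Clic1 TSSs 5 and 6, the nearest 276 bp downstream of TSS 6. In RefSeq, Ddah2 is the gene next to Clic1. The summed level of these Ddah2 TSSs was 31.9 ± 9.95 RPM in control and 22.2 ± 5.34 RPM in cAMP cells. Whether transcripts from TSS 5 run through Clic1 or Ddah2 was not tested, since 5′ ends alone do not show it.

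Tada3, an adaptor subunit of the SAGA and ATAC histone acetyltransferase complexes, had the greatest change in share, at a sum of no more than 11.3 RPM in any library. Tada3 TSS 1 (chr4:208627049-208627081, minus strand) had 7.70, 8.79 and 7.89 RPM in the controls and 0.876, 1.37 and 0.645 RPM in cAMP cells. Tada3 TSS 2, 296 bp downstream (chr4:208626735-208626803), was at 0.910, 2.52 and 0.758 RPM in the controls and 2.95, 2.78 and 2.95 RPM in cAMP cells. The cAMP libraries were below the controls at TSS 1 and above them at TSS 2. The share of TSS 2 was 13.9% ± 7.35 in control and 75.4% ± 7.70 in cAMP cells (SD, n = 3 each). The nerves disagreed, with 21.9% in the first and 90.3% in the second, at sums of 7.02 and 8.89 RPM, so nerve gave no single pattern for this gene. Arpc4, a subunit of the actin-nucleating ARP2/3 complex, starts 351 bp away on the opposite strand at 305 ± 29.4 RPM in control and 264 ± 4.70 RPM in cAMP cells.

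Aatk encodes a membrane-bound kinase named for its link to apoptosis (also LMTK1), and cAMP cells used a TSS that control cells barely used. Aatk TSS 1 (chr10:108799089-108799284, minus strand) had 7.39, 1.024 and 0.447 RPM in the controls and 126, 85.9 and 110.1 RPM in cAMP cells. Aatk TSS 2, 3098 bp downstream (chr10:108796025-108796151), was at 37.1, 49.3 and 45.9 RPM in the controls and 124, 105 and 123 RPM in cAMP cells. Every cAMP library was above every control library at both TSSs. TSS 1 held 6.45% ± 8.66 in control cells, where a single library at 16.4% stood apart from the others at 2.02% and 0.909%, and 45.7% ± 2.72 in cAMP cells (SD, n = 3 each). The nerves had 42.5% and 42.2%, and parental S16 cells 36.5% and 22.1%, all above the controls. TSSs 3 to 8 of Aatk were at most 5.03 RPM in any library.

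**Figure D2:**
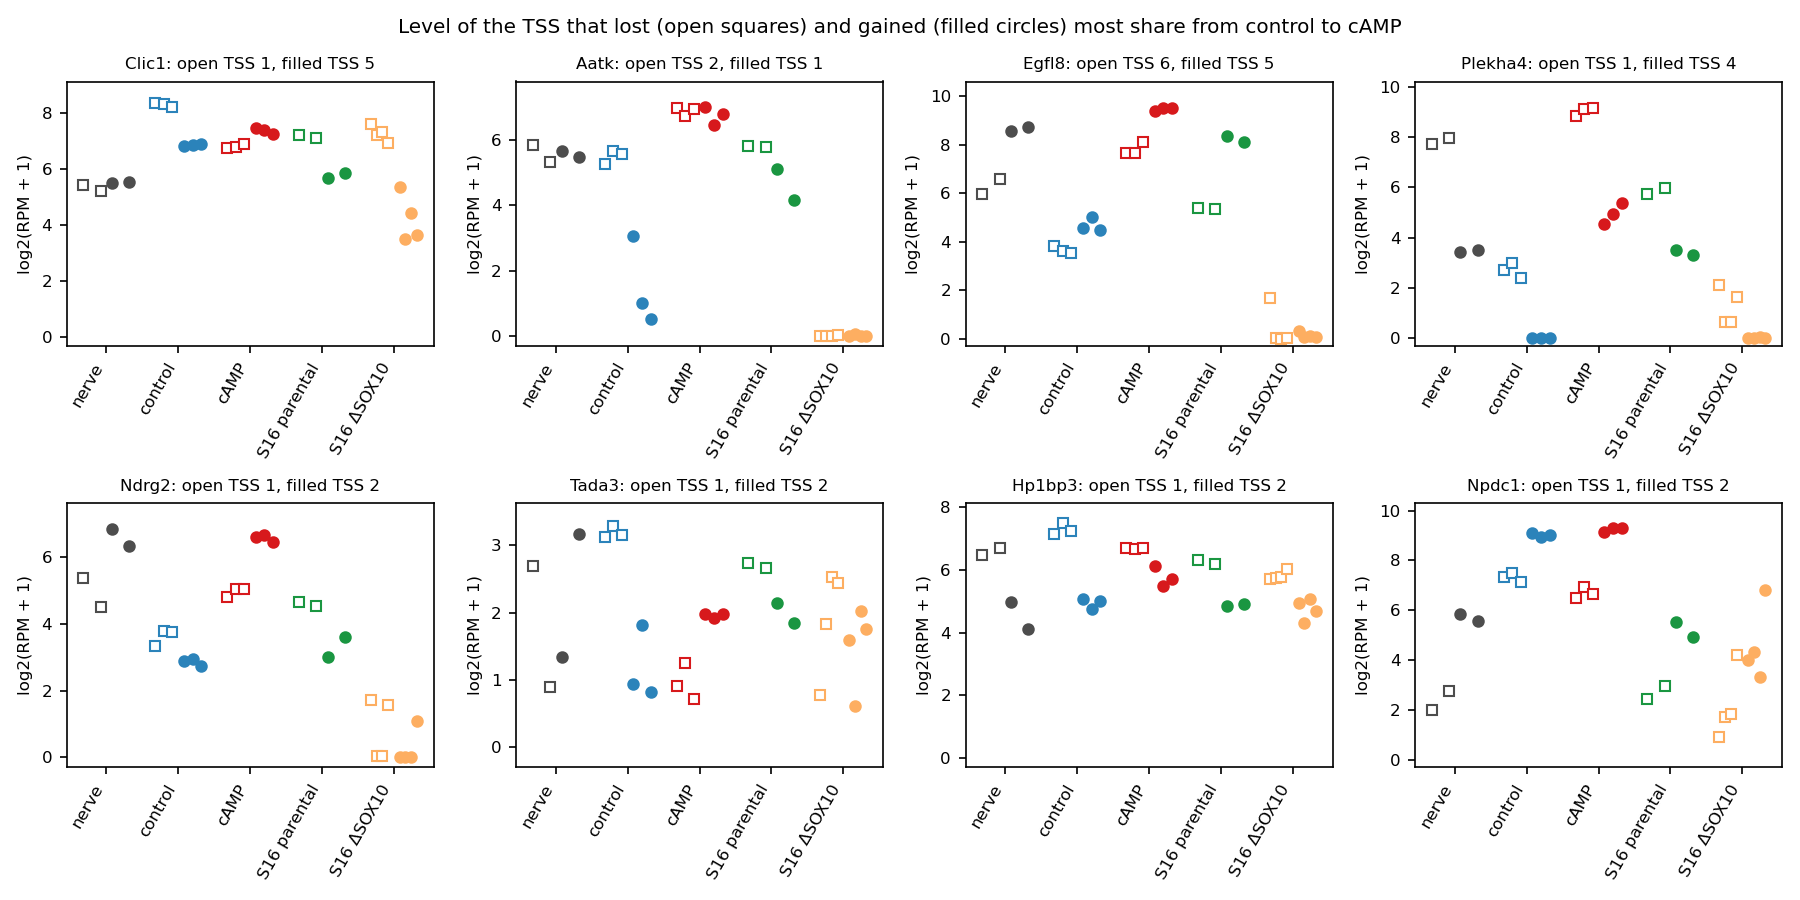
Level in log2(RPM + 1) of the TSS that lost most share (open squares) and of the TSS that gained most share (filled circles) from control to cAMP cells, with 1 point per library and colors by group. Aatk TSS 1 lay between 0.447 and 7.39 RPM in the controls and between 85.9 and 126 RPM in cAMP cells, and Plekha4 TSS 4 was near 0 in control cells.

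Hp1bp3, a nuclear protein with linker histone domains that binds heterochromatin protein HP1, gained at its downstream TSS and lost at its upstream TSS. Hp1bp3 TSS 1 (chr5:160331103-160331158, plus strand) had 139, 180.2 and 148 RPM in the controls and 102, 99.8 and 102 RPM in cAMP cells. Hp1bp3 TSS 2, 560 bp downstream (chr5:160331630-160331750), was at 32.6, 26.1 and 31.2 RPM in the controls and 68.0, 43.4 and 51.8 RPM in cAMP cells. The groups did not overlap at either TSS, and they moved in opposite directions. TSS 2 held 16.3% ± 3.31 in control and 34.7% ± 4.94 in cAMP cells (SD, n = 3 each). In the nerves it held 26.0% and 13.7%, so that 1 nerve lay among the controls and the other between the groups. The sum was 186 ± 18.2 RPM in control and 156 ± 13.4 RPM in cAMP cells, with every cAMP library below every control.

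Npdc1, a membrane protein of neural cells linked to the stop of proliferation, used its main TSS somewhat more with cAMP, by 9.33 percentage points of its total. Npdc1 TSS 2 (chr3:2606392-2606484, plus strand) was at 554, 486 and 519 RPM in the controls and 566, 629.9 and 628 RPM in cAMP cells, a difference of 0.23 in log2(RPM + 1). Npdc1 TSS 1, 100 bp upstream (chr3:2606333-2606344), was at 162, 179 and 139 RPM in the controls and 89.0, 122 and 100.99 RPM in cAMP cells. The share of TSS 2 was 73.2% ± 3.02 in control and 82.6% ± 1.23 in cAMP cells (SD, n = 3 each). Npdc1 TSS 4, 2854 bp downstream of TSS 1 (chr3:2609116-2609268), held between 3.13% and 4.75% in primary cells, 9.61% and 17.7% in the nerves and 37.2% and 45.9% in parental S16 cells. The sum was 710 ± 36.1 RPM in control and 737 ± 49.6 RPM in cAMP cells, against 68.2 ± 0.588 RPM in nerve (SD, n = 2) and 72.8 ± 7.98 RPM in parental S16 cells (SD, n = 2).

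Egfl8, a secreted protein with EGF-like domains, was higher with cAMP at nearly all its TSSs and kept its main TSS. Egfl8 TSS 5 (chr20:6459894-6459975, minus strand) was at 22.5, 31.1 and 21.6 RPM in the controls and 673, 737 and 738 RPM in cAMP cells. Of its 11 TSSs, 10 had every cAMP library above every control library. TSS 5 held 42.5%, 59.7% and 46.7% in control cells, within which all 3 cAMP libraries fell, with 55.3%, 54.3% and 53.3%. TSS 6, 1690 bp downstream of TSS 1, held 23.1% ± 1.51 in control and 17.0% ± 2.58 in cAMP cells (SD, n = 3 each), with no overlap. The sum was 50.4 ± 3.60 RPM in control and 1319 ± 89.99 RPM in cAMP cells, 26.2 times as high, and 622 ± 51.3 RPM in nerve.

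Plekha4, an adaptor with a pleckstrin homology domain that binds phosphoinositides, had the greatest difference in level and kept TSS 1 as its main TSS in every group. Plekha4 TSS 1 (chr1:102596476-102596550, plus strand) was at 5.51, 6.94 and 4.32 RPM in the controls and 457, 551 and 575 RPM in cAMP cells. Its share was 99.9% ± 0.183 in control and 91.8% ± 0.868 in cAMP cells (SD, n = 3 each). Plekha4 TSS 4, 875 bp downstream (chr1:102597369-102597407), had 0.0175, 0 and 0 RPM in control cells, which is a single read, and 22.1, 30.1 and 40.3 RPM in cAMP cells. TSS 2 had no read in any control library, and 14.4, 3.98 and 8.82 RPM in cAMP cells, which is at least 156-fold higher than the 3 reads (0.0583 RPM) that a count of 0 allows in the shallowest control. The sum was 5.60 ± 1.31 RPM in control against 574 ± 66.6 RPM in cAMP cells, so reads at minor TSSs were few in control cells. At their mean cAMP shares of 0.333%, 0.765% and 0.158%, TSSs 3, 5 and 6 would lie under this floor there. TSS 2, with a mean cAMP share of 1.65%, would lie above it and had no control read. Whether these shares differed was not tested.

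**Figure D3:**
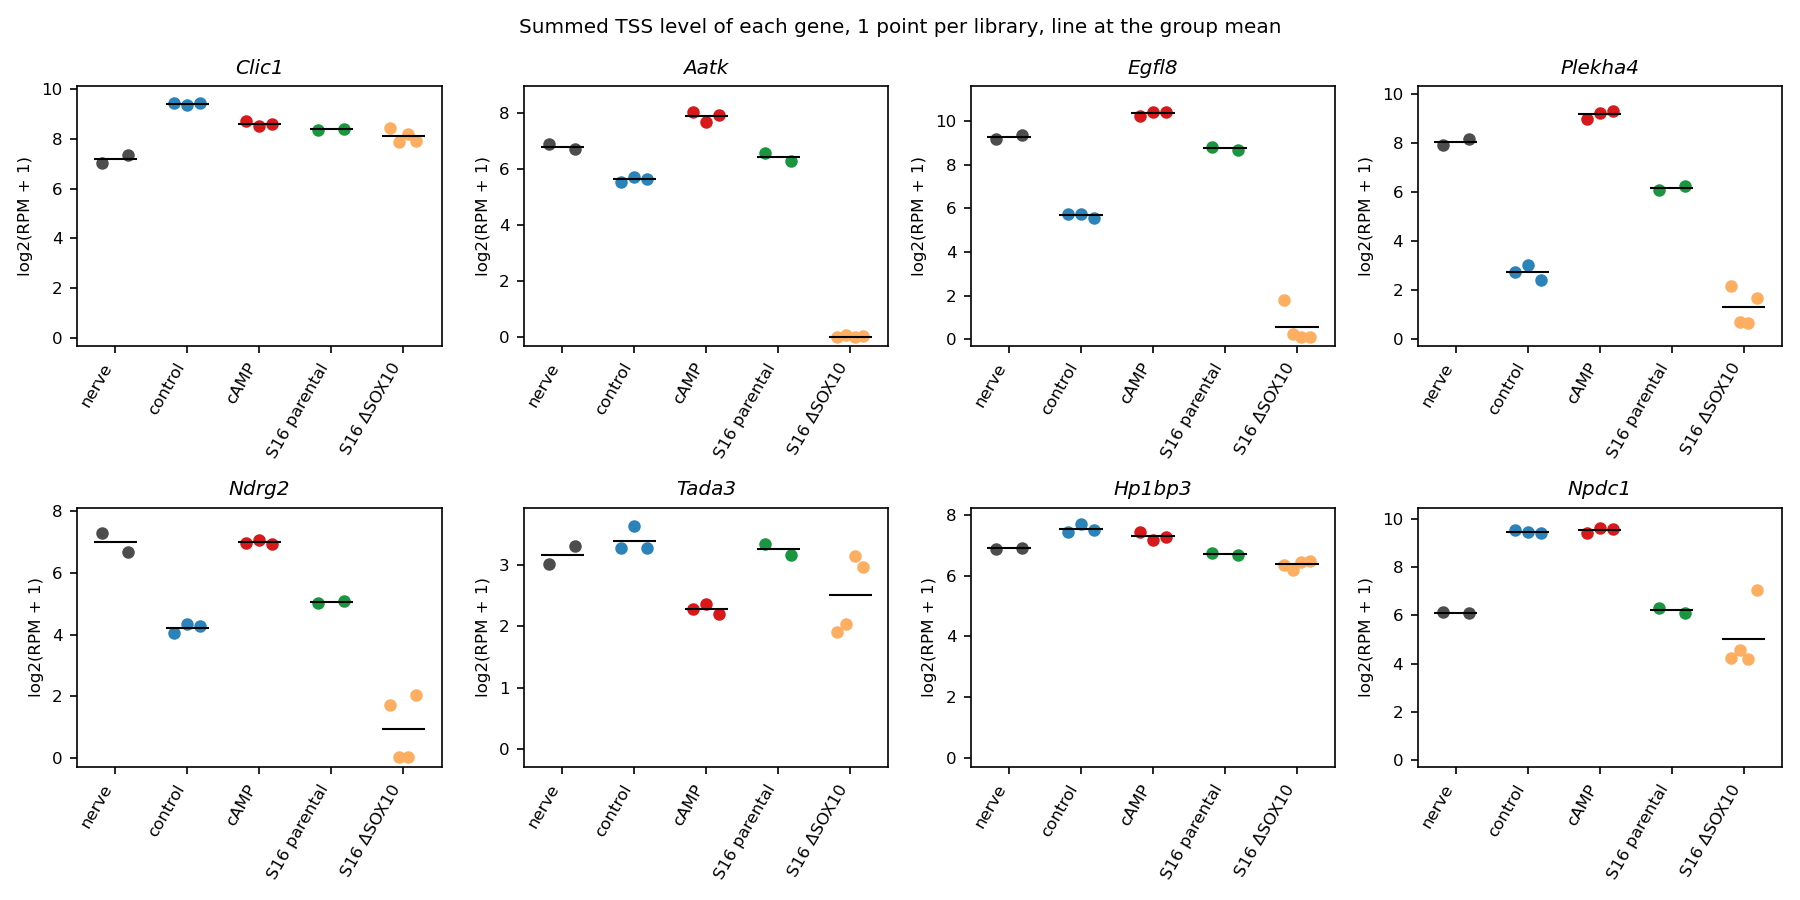
Summed level of all TSSs of each gene in log2(RPM + 1), with 1 point per library and a line at the group mean. Egfl8, Plekha4, Aatk and Ndrg2 were higher in cAMP than in control cells and at most 3.39 RPM in any ΔSOX10 clone, whereas Clic1 and Hp1bp3 stayed at 71.6 RPM or above in every library.

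The 8 genes differed in their summed level with cAMP. Aatk, Egfl8, Plekha4 and Ndrg2 were between 4.84 and 103 times as high in cAMP as in control cells, Npdc1 and Hp1bp3 were at 1.04 and 0.838 times, and Clic1 and Tada3 at 0.572 and 0.405 times. In bulk RNA, fewer cells of a type and less RNA per cell cannot be told apart. The Schwann cell marker list had 13 genes among the candidates, with a summed level of 7808 to 8013 RPM in control and 12879 to 14782 RPM in cAMP cells. Of its 125 listed TSSs, a part of which did not reach the minimum and was not tested, limma called 49 higher and 3 lower with cAMP, against 12.9% higher and 11.0% lower over all TSSs. Of the immature markers Jun, Ngfr and Sox2, both Jun and Ngfr were listed, and all 3 of their TSSs were called lower, with Ngfr at 2622 RPM in control and 794 RPM in cAMP cells, and Ngfr stands on both lists. The part of these shifts in the values of the 8 genes was not tested. Of markers of fibroblasts, macrophages, perineurial and mural cells, 5 of 19 genes were listed, with fibroblast sums (Col1a1 and Pdgfra) of 803 to 909 RPM in control and 369.7 to 466 RPM in cAMP cells. The mural marker Pdgfrb had 0.779 to 1.91 RPM in control and 22.4 to 29.6 RPM in cAMP cells, the perineurial marker Itgb4 at most 5.09 RPM in either, the macrophage marker Csf1r 0 RPM in both, and no endothelial or adipocyte marker was listed.

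Loss of SOX10 was tested in S16 cells, in libraries outside the comparison that chose the genes. The clones were transfected, selected with puromycin and each grown from a single cell, whereas the parental cells were unmodified. Loss of SOX10 and these steps cannot be told apart in this comparison. The Sox10 TSS had 84.1 RPM in parental cells and between 0 and 0.114 RPM in the clones. Of the 41 TSSs of the 8 genes, 28 passed the minimum of 1 RPM in 2 of the 6 S16 libraries and could be tested, and 15 of these 28 were lower in ΔSOX10 clones and 0 higher (limma on log2(RPM + 1), Benjamini-Hochberg adjusted p under 0.05). Over all 3875 TSSs tested, 6.55% were called lower and 1.65% higher. Over all these TSSs the median difference was -0.18, or -0.05 after TMM scaling. By levels alone, 21 of the 28 had all clones below both parental libraries and 0 all above, against 21.7% and 7.69% over all TSSs. A TSS that passed the minimum through parental cells alone had to be lower in the clones, and 11 of the 28 had no clone above 1 RPM, so these counts are a description. The TSSs called lower were 7 of Egfl8, 3 of Aatk, 2 of Plekha4, 2 of Ndrg2 and 1 of Npdc1, and TSSs of a gene share their RNA and are not independent. Without the first or the second parental library, 17 TSSs could be tested and 5 or 4 of them were called. The call of Aatk TSS 6, which had no read in any clone, was lost under 9 alternatives.

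Aatk, Egfl8, Plekha4 and Ndrg2, the genes whose sum was higher with cAMP, had sums of at most 3.39 RPM in any clone. For TSSs with no clone above 1 RPM, the p given is that of the fit without the minimum. Aatk had 92.4 and 76.3 RPM in parental cells and at most 0.0508 RPM in any clone. Its TSS 1 had 33.7 and 16.9 RPM in parental cells, with a difference of -4.62 ± 0.414 (SE) in log2(RPM + 1) (limma adjusted p = 0.00040 without the minimum), and its TSS 2 had 55.0 and 54.2 RPM, with a difference of -5.79 ± 0.366 (limma adjusted p = 0.00014 without the minimum). Both TSSs that cAMP cells used about equally were thus near 0 in all 4 clones. Egfl8 TSS 5 had 327 and 276 RPM in parental cells and 0.229, 0.0508, 0.0820 and 0.0570 RPM in clones 1-1, 1-2, 2-1 and 2-2, a difference of -8.09 ± 0.351 (limma adjusted p = 4.0e-05 without the minimum). Egfl8 TSS 2 had no read in any clone against 12.1 and 16.8 RPM in parental cells, lower by at least 169-fold over the floor of 3 reads in the shallowest clone (0.0855 RPM).

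Plekha4 TSS 1 had 52.4 and 61.7 RPM in parental cells and 3.39, 0.585, 0.546 and 2.11 RPM in the clones, with a difference of -4.59 ± 0.514 (limma adjusted p = 0.00061). Ndrg2 TSS 1 had 24.5 and 22.2 RPM in parental cells and 2.27, 0.0254, 0.0273 and 1.97 RPM in the clones, a difference of -3.77 ± 0.596 (limma adjusted p = 0.0043). Ndrg2 TSS 2, the TSS that cAMP cells and nerve used most, had 7.10 and 11.1 RPM in parental cells, no read in 3 clones and 1.11 RPM in clone 2-2, a difference of -3.04 ± 0.466 (limma adjusted p = 0.0037). This call was lost without the second parental library (adjusted p = 0.12) and with edgeR (adjusted p = 0.18) or DESeq2 (adjusted p = 0.57) on recovered reads. The call of Ndrg2 TSS 1 was lost with edgeR (adjusted p = 0.074) and with a pseudocount of 0.1 (adjusted p = 0.065).

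**Figure D4:**
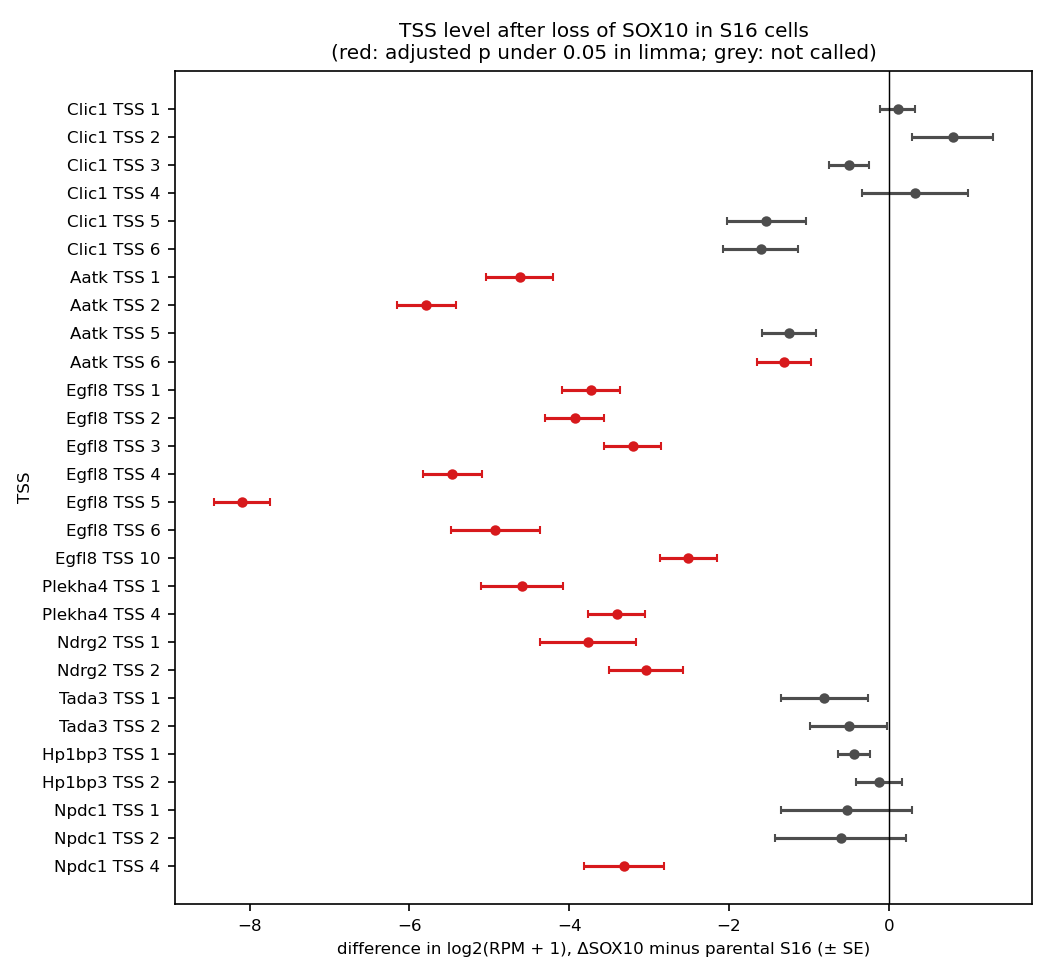
Difference in log2(RPM + 1) between 4 ΔSOX10 clones and 2 parental S16 libraries for the 28 tested TSSs of the 8 genes, with bars of 1 standard error. Red marks the 15 TSSs called lower by limma, among them TSSs that passed the minimum through parental cells alone, and Egfl8 TSS 5 lies farthest from 0, at -8.09.

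At Clic1, Tada3, Hp1bp3 and Npdc1, only Npdc1 TSS 4 was called in the comparison of the 6 S16 libraries. Clic1 TSS 1 had 147 and 134 RPM in parental cells and 193, 147, 156 and 119 RPM in the clones, so the groups overlapped (difference 0.11 ± 0.215, limma adjusted p = 0.83). Clic1 TSS 5 had 50.0 and 56.2 RPM in parental cells and 39.5, 10.2, 20.4 and 11.5 RPM in the clones, below them in every case, but with a wide spread (difference -1.53 ± 0.489, limma adjusted p = 0.10). Without clone 1-1, which was the highest, the adjusted p of limma was 0.014 and the difference -1.90, and in 1 model of all 14 libraries the adjusted p was 0.0029. Clic1 TSS 6 had an adjusted p of 0.031 without clone 1-1. Hp1bp3 TSS 1 and TSS 2 differed by -0.44 ± 0.198 and -0.13 ± 0.284 (limma adjusted p = 0.26 and 0.85), and Tada3 TSS 1 and TSS 2 by -0.81 ± 0.548 and -0.50 ± 0.483 (limma adjusted p = 0.48 and 0.65). Npdc1 TSS 4, the TSS that parental S16 cells used more than the other cells did, had 29.1 and 30.8 RPM in parental cells and 1.503, 1.40, 5.57 and 1.37 RPM in the clones (difference -3.32 ± 0.505, limma adjusted p = 0.0036). Npdc1 TSS 2 overlapped, with 44.9 and 29.6 RPM in parental cells and 15.3, 19.2, 8.91 and 112 RPM in the clones (limma adjusted p = 0.75).

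Unequal change among the TSSs of a gene was called for 21 of 417 genes in S16 cells (5.04%, diffSplice adjusted p under 0.05), and for 2 of the 8, Egfl8 and Aatk. In both genes nearly all TSSs were near 0 in the clones, so that on the log2(RPM + 1) scale a TSS could fall by no more than its parental level, and edgeR's diffSpliceDGE on recovered reads called neither. Clic1, Npdc1, Plekha4, Ndrg2, Hp1bp3 and Tada3 were not called (limma adjusted p = 0.28, 0.28, 0.31, 0.72, 0.75 and 0.91). The share of Hp1bp3 TSS 2 was 25.8% and 29.2% in parental cells and 36.9%, 26.2%, 37.9% and 28.0% in the clones, which overlap. Clic1 TSS 5 held 15.3% and 16.6% in parental cells and 11.4%, 4.45%, 7.01% and 4.87% in the clones, all lower. Schwann markers moved with SOX10 as well, from a sum of 11002 to 11282 RPM in parental cells to 196 to 475 RPM in the clones, and 57 of the 73 tested TSSs of that list were called lower. Fibroblast markers summed to 2255 to 2829 RPM in parental cells and 2971 to 5302 RPM in the clones, with a limma adjusted p of 0.13 at the lowest. The part of these shifts of S16 markers in the levels of the 8 genes was not tested.

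Side by side, by mean RPM, nerve had the same main TSS as cAMP cells for 7 of the 8 genes and the same as control cells for 5. The exception to the first count was Clic1, whose TSSs 1, 3 and 5 were close in nerve, with means of 38.8, 48.8 and 44.8 RPM. Ndrg2 and Tada3 alone make the gap between the counts, and the nerves differed in main TSS for Tada3, Aatk and Clic1. Tada3 TSS 2 held 21.9% in the first nerve and 90.3% in the second. Aatk TSS 2 had 55.9 and 38.7 RPM in the nerves, against 49.9 and 43.1 RPM at TSS 1. The same counts over all genes with several TSSs were not made. Levels in nerve lay below cAMP cells for Egfl8 and Plekha4, at 622 ± 51.3 and 261 ± 32.4 RPM (SD, n = 2), and above their controls. Npdc1 was at 68.2 and 72.8 RPM on average in nerve and parental S16 cells and at 710 RPM in control cells.

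The candidate list ties each TSS to a SOX10 peak, and 13 of the 41 TSSs (31.7%) overlapped theirs, against 51.7% of all 4993 candidates. The TSSs of the 8 genes had a median width of 27 bp, against 57 bp over all candidates. Of the 8 TSSs that gained most share with cAMP, 4 overlapped a SOX10 peak (Ndrg2 TSS 2, Clic1 TSS 5, Hp1bp3 TSS 2 and Plekha4 TSS 4), near the 51.7% of all candidates. For Ndrg2 and Hp1bp3, the TSS that lost share lay outside the peak, by 202 and 442 bp, whereas for Clic1 and Plekha4 the TSS that lost most share, TSS 1 in both, overlapped its peak too. At Aatk, TSS 2 overlapped its SOX10 peak and TSS 1, which gained, lay 2290 bp outside it. Neither TSS of Tada3 overlapped its peak, with the gaining TSS 2 at 597 bp and TSS 1 at 319 bp. Egfl8 TSS 5, which gained most, lay 225 bp outside its peak. In Npdc1 the gaining TSS 2 lay 1316 bp from the peak, which TSS 3 overlapped.

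**Figure D5:**
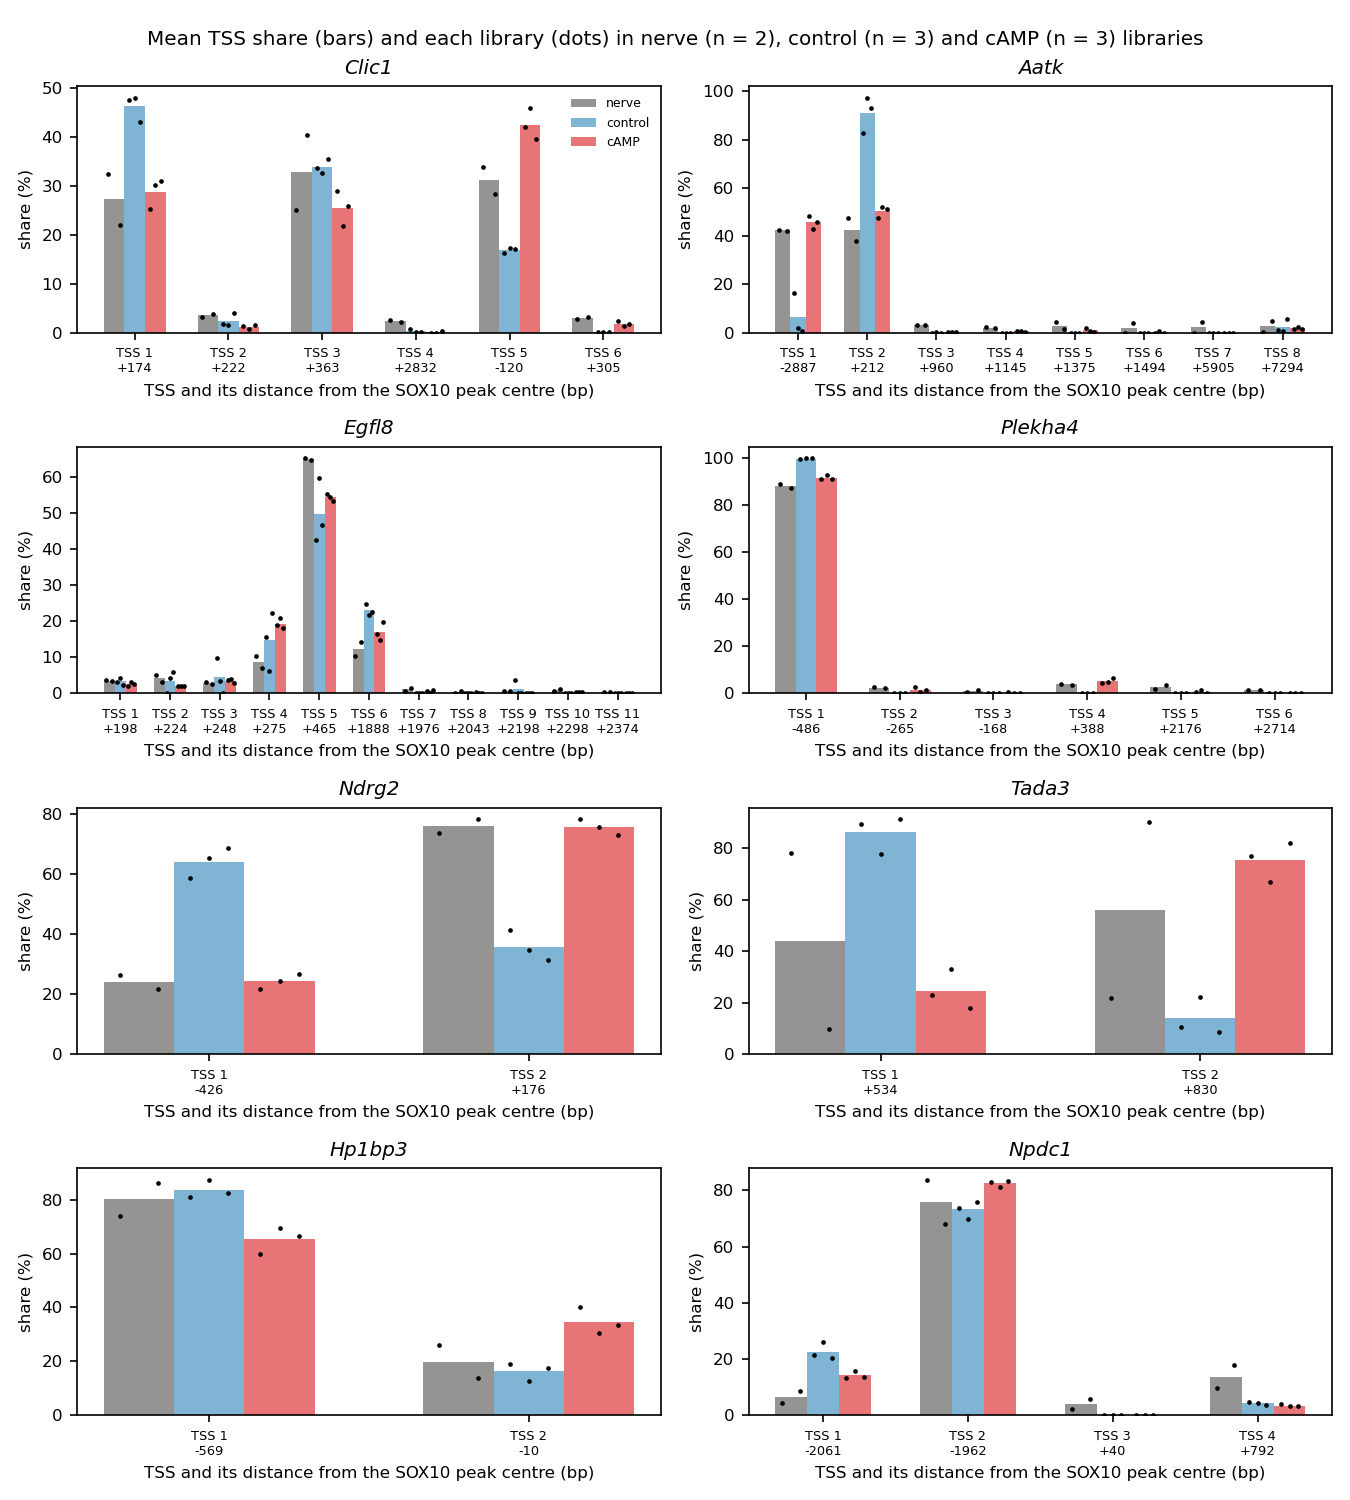
Mean TSS share in nerve, control and cAMP cells (bars) with each library as a dot, for every TSS in order of transcription, with the distance in bp of its middle from the centre of its SOX10 peak under the label (negative before the centre). Hp1bp3 TSS 2 lies at -10 bp and Aatk TSS 1 at -2887 bp.

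The genes most like each member were found for its main TSS in nerve, by Pearson correlation of log2(RPM + 1) across the 14 libraries against 2912 TSSs of other genes with a mean of at least 5 RPM. Egfl8 was nearest to Dhh, the Schwann cell hedgehog ligand (r = 0.986), and to Rasal2 (r = 0.984). Plekha4 was nearest to Sostdc1, a secreted BMP antagonist (r = 0.975), and to Vwa1 (r = 0.973). Ndrg2 TSS 2 was nearest to Idi1, an enzyme of cholesterol synthesis (r = 0.976), and to Sdhc (r = 0.971). Aatk TSS 2 was nearest to Il25 and Gm10863 (r = 0.987 and 0.986), Npdc1 TSS 2 to Fkbp1a (r = 0.981) and Ndfip1 (r = 0.979), Hp1bp3 TSS 1 to Grk4 (r = 0.963) and Alkbh7 (r = 0.960), and Clic1 TSS 3 to Stam (r = 0.920). Tada3 had no close match, with Aldoa at 0.721 and Rpl17 at 0.682. The points share their groups and instruments, so these values only describe the pattern.

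Relatives of the 8 genes were searched among the candidates by symbol. Of 52 symbols, 11 had a listed TSS, and the same share over all genes was not counted. None of their TSSs passed in S16 cells, with Usp22 nearest (limma adjusted p = 0.13), but few were tested. The linker histone and HP1 list and the list of Tada3 complexes had 5 tested TSSs each, and every other list at most 1. Over all TSSs tested in S16 cells, 6.55% were called lower and 1.65% higher. Over all TSSs tested with cAMP, 12.9% were called higher and 11.0% lower. With cAMP, Plekha1, a phosphoinositide-binding relative of Plekha4, rose from 40.5 to 183 RPM (log2 difference 2.14 ± 0.174, limma adjusted p = 3.1e-09) at its single TSS. Hist1h1c, a linker histone, rose from 169 to 464 RPM at its main TSS (1.45 ± 0.0996, limma adjusted p = 2.0e-10), whereas H1f0, another linker histone, fell from 448 to 274 RPM at its main TSS (-0.71 ± 0.0934, limma adjusted p = 4.2e-06) and from 47.0 to 16.1 RPM at another (limma adjusted p = 5.6e-05). Ndrg1, the relative of Ndrg2 known from peripheral neuropathy, was at 56.8 RPM in the controls and 74.7 RPM in cAMP cells and did not pass (limma adjusted p = 0.096). Neither Clic4 nor Taf9, Eny2 and Usp22, subunits or partners of the complexes of Tada3, passed the test in either comparison.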

How the data were processed

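Tn5Prime libraries were made and processed by the authors. Per the submitters' processing notes and the methods of the study, reads were trimmed with Cutadapt 1.14, aligned to rn5 with STAR 2.5.2a and handled with SAMtools 1.9, TSSs were called with Make_CTSS and Paraclu, reads at each TSS were counted with featureCounts (Subread 1.6.1), and edgeR 3.24.3 was used for differential expression. The authors deposited RPM values, reads at a TSS scaled to library size, for 14 libraries at 4993 TSSs that they chose by nerve H3K4me3 and SOX10 peaks, with 4 columns of their own fold changes and FDRs, which were not used. Low values came in steps of whole reads, and 93.2% to 100% of the values of a library gave whole reads within 0.1 read.

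Samples were grouped by the labels. TSSs above 1 RPM in 2 or more of the 6 libraries compared were tested on log2(RPM + 1) with limma 3.58.1 in R 4.3.3 (lmFit, eBayes with trend, and diffSplice for TSS use within a gene), and p-values were adjusted by Benjamini-Hochberg over all tested TSSs or genes, with a threshold of 0.05. Fold changes on this scale understate the change of low TSSs. edgeR 4.0.16 and DESeq2 1.42.0 on the recovered reads, other pseudocounts, filters and scalings, and leaving out each library were alternatives, and the fits were tested on simulated data. All TSSs of the 8 genes are reported, and the nerve-main TSS of each gene was used to find the TSSs most like it. The genes and gene lists were chosen with earlier results of these data known. Control and cAMP libraries carry the same replicate numbers, but the deviations of same-numbered libraries from their group means correlated by no more than 0.0379, so the numbers were not taken as pairs. Parental libraries come from 1 line, and p-values measure the spread between these libraries. RefSeq promoters of GRCr8 supplied sequences and neighbouring genes only.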

Additional observations from a re-analysis of the deposited data

Results flagged for a closer look

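Among 24 sets of 4 ΔSOX10 clones (TSSs and summed levels of the 8 genes), 9 held 1 clone far from the others by Dixon's criterion. Its rate of about 1 in 20 is for normal values and does not hold here. Only sets with a clone above 1 RPM were kept, and a single clone with reads among clones at 0 RPM always passes. The count is therefore a description. Clone 2-2 was high for Npdc1, with a summed level of 131 RPM against 17.0 to 22.9 RPM in the other clones, 112 RPM at TSS 2 against 8.91 to 19.2 RPM, and 17.6 RPM at TSS 1 against 0.866 to 2.54 RPM. Npdc1 TSS 4 did not follow, since clone 2-1 was high there, at 5.57 RPM against 1.37 to 1.503 RPM. Clone 2-2 was also high at Hp1bp3 TSS 1, with 63.8 RPM against 51.3 to 53.2 RPM, and at Ndrg2 TSS 2, with 1.11 RPM against 0 RPM. Clone 1-1 was high at Egfl8 TSS 6, with 2.19 RPM against 0 to 0.0285 RPM, in the Egfl8 sum, with 2.44 RPM against 0.0820 to 0.178 RPM, and at Clic1 TSS 6, with 1.27 RPM against 0 RPM. TSSs of a gene share their clone, so these are not separate events, and their cause was not tested.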

How the results depend on the processing

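In each of the 8 genes, the share of the TSS that gained most kept its direction under each alternative run. That TSS was picked for its gain in these same libraries, so its direction had little room to turn. For Egfl8 TSS 5 the gain ranged from 1.12 to 9.74 percentage points, and its groups overlapped. Of the 15 TSSs of the 8 genes called lower without SOX10, 12 kept the call in every setting that tested them. With a mean of at least 5 RPM required, TSSs called lower in S16 cells numbered 166 in place of 254, those of the 8 genes 8 in place of 15, genes with unequal use 11 in place of 21, those among the 8 numbered 1 in place of 2, and genes with unequal use under cAMP 29 in place of 44, since fewer TSSs were tested. A pseudocount of 5 gave 35, 4 and 91 for the last 3 counts, and edgeR gave 13, 0 and 26. No filter gave 39 genes with unequal use in S16 cells, and DESeq2 called 164 TSSs higher in place of 64. The causes of these shifts were not tested.

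Leaving out 1 library gave 71 to 265 TSSs called lower in S16 cells, 28 to 55 called higher, 4 to 16 of the 8 genes' TSSs called lower, 5 to 27 genes with unequal use and 0 to 2 of the 8 genes. The low ends came without a parental library, which leaves 1 library in that group, taken to vary like the clones, and 17 of the 28 TSSs to test. Signs turned for 5 TSSs that no setting called. Hp1bp3 TSS 2 (-0.13) had 0.020 with TMM scaling, 0.018 with median-ratio scaling, 0.035 with edgeR and 0.039 with DESeq2, and -0.23 to 0.023 without 1 library. Npdc1 TSS 1 (-0.53) had 0.17 with both count tools and Npdc1 TSS 2 (-0.60) had 0.18. Clic1 TSS 1 ranged from -0.0073 to 0.22 and Clic1 TSS 4 from -0.48 to 1.13 without 1 library. With the replicate number as a replicate block, cAMP cells had 553 TSSs higher, 467 lower and 42 genes with unequal use, against 530, 452 and 44 without it. S16 groups share no numbers. Depth limits TSSs near 3 reads, such as the minor TSSs of Plekha4 in control cells.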
